A study of Mus musculus with 37 samples.

Results

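The genes described are 4 that encode hormones of the anterior pituitary: Gh, Prl, Cga and Pomc. Every probe set annotated to exactly 1 of these symbols was taken, which gave 8 of the 34945 probe sets with a single symbol: 4 for Gh, 1 for Prl, 2 for Pomc and 1 for Cga. They stand for 4 of the 18193 genes measured. Gh and Prl were picked with their values on these arrays known, because one array was highest on both and because KO exceeded WT on a dim Gh probe set. Their differences between KO and WT are therefore given as descriptions without a test, and so are their differences between the KO groups, which hold the same arrays. Tests were kept to Pomc and Cga and to the comparison of the WT groups.

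The samples were temporal lobes of mice, dissected under a microscope, and each of the 37 Affymetrix arrays carried labelled RNA from 1 sample. Wild-type mice (WT) and mice whose Wfs1 gene was knocked out (KO) were compared on a background labelled C57 (C57B6 in the series design) and on one labelled 129SV (129S6 in the design), called C57 and 129 here. Each group had 9 arrays except 129 KO, which had 10. No label gives age, sex, litter or the way the allele was made. None says that each array is a different animal. The p-values set differences of group means against the scatter among these samples only, which may be technical in part. Signals are log2 values and differences are log2 differences, so that 1 unit is a doubling of the signal.

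The hormones are made by specialised cells of the pituitary, a gland outside the brain. Somatotrophs secrete growth hormone (Gh), which acts on liver and other tissues in large part through Igf1, and lactotrophs secrete prolactin (Prl). Gonadotrophs and thyrotrophs share the alpha subunit Cga, which pairs with the beta subunits Lhb, Fshb and Tshb. Corticotrophs and melanotrophs cut the precursor Pomc into corticotropin, melanocortins and beta-endorphin, and Pomc is also made by neurons of the arcuate hypothalamus. The factor Pou1f1 drives Gh, Prl and Tshb in the pituitary. Temporal cortex and hippocampus are not major sites of any of these transcripts.

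The promoter sequences are shown because Gh, Prl and Cga were highest on the same array and Pomc was not. The RefSeq promoter table for GRCm38.p6 held Prl, Pomc and Cga, and each is given as the 250 bases before the start of the transcript. Capitals mark matches to 3 motifs searched on both strands: TATNCAT, the core bound by Pou1f1, TGANGTCA, the core of the cyclic AMP response element with 1 base left free, and TATAAA, the TATA box.
Prl chr13:27057320-27057569 (plus strand): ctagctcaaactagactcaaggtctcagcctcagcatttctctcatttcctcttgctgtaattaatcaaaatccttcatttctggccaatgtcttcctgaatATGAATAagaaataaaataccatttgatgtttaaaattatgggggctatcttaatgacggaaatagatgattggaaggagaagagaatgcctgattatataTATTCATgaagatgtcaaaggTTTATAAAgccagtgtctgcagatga
Cga chr4:34893529-34893778 (plus strand): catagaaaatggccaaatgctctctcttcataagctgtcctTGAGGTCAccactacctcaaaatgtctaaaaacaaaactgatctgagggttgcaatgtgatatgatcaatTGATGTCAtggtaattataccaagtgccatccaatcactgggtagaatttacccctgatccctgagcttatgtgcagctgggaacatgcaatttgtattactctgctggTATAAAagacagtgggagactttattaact
Pomc chr12:3954695-3954944 (plus strand): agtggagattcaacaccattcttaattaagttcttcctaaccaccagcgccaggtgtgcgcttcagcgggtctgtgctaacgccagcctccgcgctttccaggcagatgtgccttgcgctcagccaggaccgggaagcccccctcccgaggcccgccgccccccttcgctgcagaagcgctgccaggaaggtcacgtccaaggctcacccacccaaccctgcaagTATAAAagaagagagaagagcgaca

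TATNCAT was found only in the Prl sequence among these 3, at -47 to -41 on the plus strand and at -148 to -142 on the minus strand, counted from the start of the transcript. TGANGTCA was found only in the Cga sequence, at -209 to -202 and at -139 to -132. All 3 sequences held TATAAA, beginning at -24 in Prl, -25 in Pomc and -30 in Cga, and in Prl the match overlapped one on the minus strand, so the run in capitals there is longer. Of 32851 promoters of that length, 7.92% held TATNCAT, 7.49% held TGANGTCA and 12.4% held TATAAA. These matches are letters only, and nothing on these arrays measured binding there.

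Wfs1 itself separated the groups, with means of 9.32 and 9.33 in C57 WT and 129 WT against 3.03 and 3.11 in the corresponding KO groups. Array medians lay between 4.30 and 4.36. Most hormone probe sets were dim: the mean of 6 of the 8 over all arrays lay under 3.60, below which signal and background are hard to part. That limit is the 40th percentile of the means of all 45037 probe sets that are not controls. The exceptions were the Gh probe set 1460310_a_at, with a mean of 3.98, and the Pomc probe set 1433800_a_at, with a mean of 5.34. Among probe sets with a single symbol, that Gh probe set stood only at percentile 39.9, so it was dim as well. Because the tissue is bulk, fewer cells of a type and less RNA per cell cannot be told apart in any value below.

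Gh, the growth hormone gene, was highest in a single library. On 1460310_a_at, its brightest probe set, C57 WT arrays ran from 3.58 to 4.20 with a median of 3.99, and C57 KO arrays from 3.60 to 4.26 with a median of 3.93. The range was 3.54 to 4.30 in 129 WT, with a median of 3.96, and 3.45 to 5.42 in 129 KO, with a median of 3.90. The groups overlapped almost wholly, and the 5.42 came from 129 KO array 56, with the next of all arrays at 4.30. The other 9 arrays of that group had a mean of 3.89 ± 0.26 (SD, n = 9), against 3.96 ± 0.25 (SD, n = 9) in 129 WT. KO differed from WT by 0.00 (SE 0.15) in C57 and by 0.08 (SE 0.15) in 129, and without array 56 the difference in 129 was -0.07 (SE 0.11).

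The dimmest Gh probe set, 1437522_x_at, differed from the rest in that KO was shifted in both strains. Its signal ran from 2.12 to 2.50 with a median of 2.35 in C57 WT, and from 2.39 to 2.97 with a median of 2.52 in C57 KO. In 129 WT it ran from 2.22 to 2.82 with a median of 2.40, and in 129 KO from 2.56 to 5.20 with a median of 2.86. The groups still overlapped, although 5 of 9 C57 KO arrays and 7 of 10 129 KO arrays lay above the highest WT array of their strain, and all 9 and all 10 lay above the WT median. KO exceeded WT by 0.28 (SE 0.19) in C57 and by 0.63 (SE 0.19) in 129. Leaving out array 56, which was again the highest at 5.20, brought the 129 difference to 0.39 (SE 0.09). The C57 difference stayed at 0.28, and its SE fell to 0.09, because all groups share one estimate of the spread. All values but that one lay at or under 3.13.

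The remaining Gh probe sets had the same single high array and smaller differences. On 1456595_x_at, array 56 stood at 5.57 and the next of all arrays, a C57 KO array, at 3.56. On 1460613_x_at, array 56 stood at 5.60 and the next, another 129 KO array, at 3.74. All 4 Gh probe sets are meant to read the same transcript, so they are not replicates. KO exceeded WT in 129 by 0.39 (SE 0.19) on the former and by 0.42 (SE 0.21) on the latter, and by 0.15 (SE 0.09) and 0.16 (SE 0.13) without array 56. In C57 the differences were 0.09 (SE 0.19) and 0.08 (SE 0.22). Affymetrix names ending in _x_at mark probe sets with probes that may bind other transcripts, which covers these 2 and the dimmest one but not the brightest.

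Prl, the prolactin gene, had 1 probe set, 1429287_a_at, whose values hardly left the range of dim probe sets. The C57 WT arrays ran from 2.53 to 2.97 with a median of 2.74, and the C57 KO arrays from 2.35 to 2.99 with a median of 2.61. In 129 WT the range was 2.49 to 2.92, with a median of 2.71, and in 129 KO it was 2.40 to 3.28, with a median of 2.73. All 4 groups overlapped, and the highest value was again that of array 56, only 0.29 above the next array. KO minus WT was -0.10 (SE 0.09) in C57 and 0.07 (SE 0.09) in 129, and 0.01 (SE 0.08) in 129 without array 56.

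Cga, the shared alpha subunit, was likewise dim on its probe set, 1418549_at. Its signal ran from 2.57 to 3.08 with a median of 2.91 in C57 WT, and from 2.49 to 3.04 with a median of 2.92 in C57 KO. It ran from 2.70 to 3.17 with a median of 2.91 in 129 WT, and from 2.55 to 3.60 with a median of 2.92 in 129 KO. Array 56 was the highest of all at 3.60, with 129 KO array 50 next at 3.24, and the groups overlapped throughout. The KO minus WT difference was -0.00 in C57 (SE 0.10, 95% interval -0.20 to 0.19, limma adjusted p = 0.999) and 0.03 in 129 (SE 0.09, interval -0.16 to 0.22, adjusted p = 1).

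Pomc was highest on a different array. On 1433800_a_at, the brightest of the hormone probe sets, C57 WT ran from 4.96 to 5.52 with a median of 5.22, and C57 KO from 5.15 to 5.62 with a median of 5.31. In 129 WT the values lay between 5.06 and 5.36, with a median of 5.25, and in 129 KO between 5.00 and 6.90, with a median of 5.33. The 6.90 came from 129 KO array 57, and the next array reached 5.79. The groups overlapped in both strains, with 4 of 10 129 KO arrays above the highest 129 WT array and 1 below the lowest.

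On that probe set the KO mean in C57 lay 0.12 above WT (SE 0.14, 95% interval -0.16 to 0.40, limma adjusted p = 0.999). In 129 it lay 0.29 above WT (SE 0.13, interval 0.02 to 0.57, unadjusted p = 0.0341, limma adjusted p = 1), and 0.14 (SE 0.08, adjusted p = 0.999) without array 57. The second Pomc probe set, 1455858_x_at, was dimmer, and array 57 was the highest there as well, at 6.11 with the next array at 3.91. Its group medians were 3.22 in C57 WT, 3.41 in C57 KO, 3.39 in 129 WT and 3.46 in 129 KO. For C57 the difference on it was 0.18 (SE 0.21, interval -0.24 to 0.61, limma adjusted p = 0.999). That interval uses the spread shared by all groups, which includes array 57. Fitted on the C57 arrays alone, the difference had SE 0.08 and an interval of 0.02 to 0.35 (limma unadjusted p = 0.0299, adjusted p = 0.84). For 129 the difference in the shared fit was 0.38 (SE 0.21, interval -0.04 to 0.79, adjusted p = 1), and 0.11 (SE 0.09) without array 57.

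**Figure D1:**
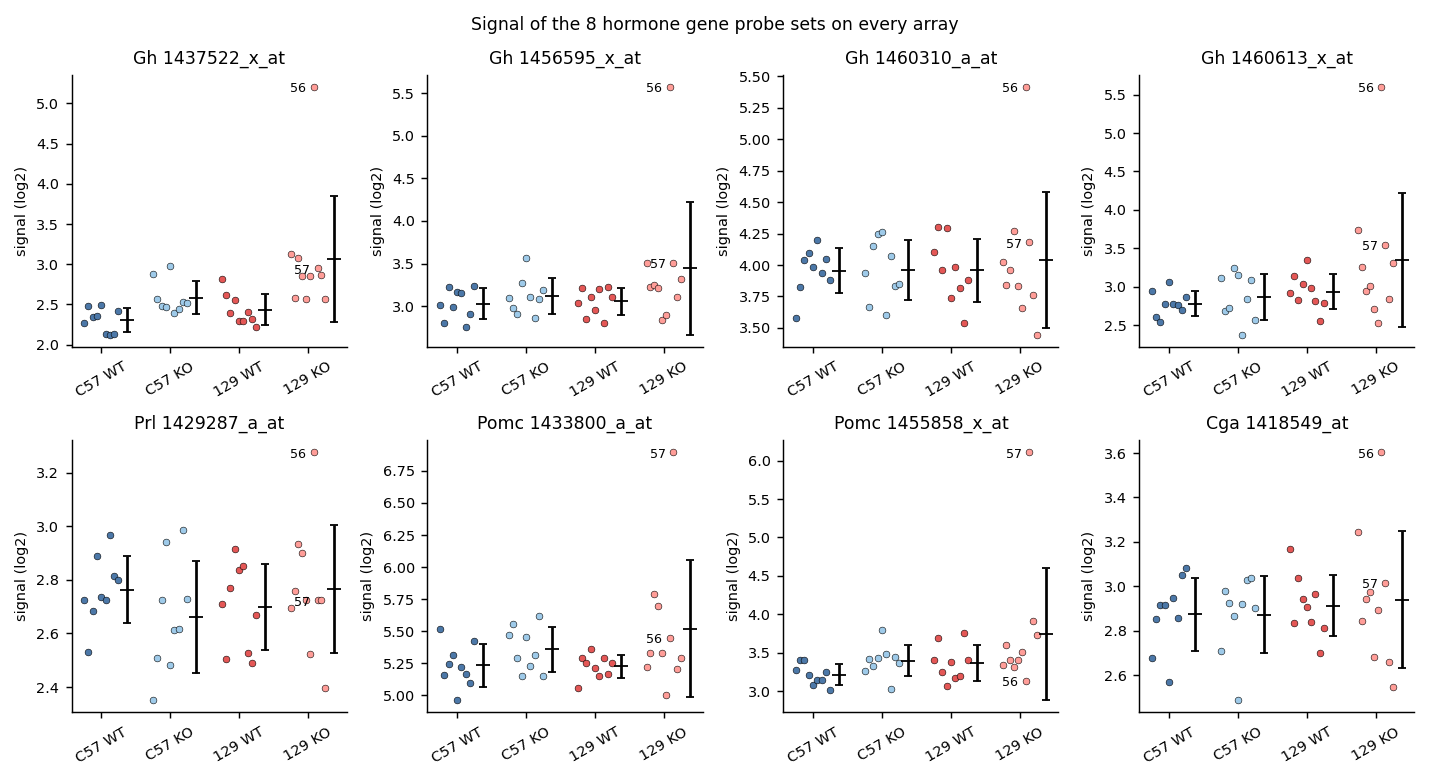
Signal (log2, vertical axis) of each of the 8 probe sets on every array, by group, with the group mean and SD as a bar beside the points and the arrays 56 and 57 of 129 KO marked. Array 56 stands alone on the 4 Gh probe sets, at 5.20 to 5.60, and array 57 on both Pomc probe sets, at 6.90 and 6.11.

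None of the Pomc and Cga probe sets passed the test for KO against WT in either strain, in 6 tests with 1 unadjusted p under 0.05. Over all probe sets, limma called 0.0715% in C57 and 0.00286% in 129. In the order of group means, 129 KO came first on all 8 probe sets and had the largest SD on all 8. Without arrays 56 and 57 it came first on 4 and had the largest SD on 5. Gh and Prl were picked on a high 129 KO array, so their part of these counts restates the choice. The share of all probe sets with 129 KO first, or with its SD largest, was not counted. With every array, 0 of the 24 steps between neighbouring groups in those orders were larger than the larger SD of the 2 groups. Without those arrays 1 step was, from C57 KO at 2.58 ± 0.20 (SD, n = 9) to 129 KO at 2.81 ± 0.22 (SD, n = 8) on the dimmest Gh probe set. The probe set with the largest shift in KO, the dimmest of Gh, was ordered 129 KO, C57 KO, 129 WT and C57 WT.

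**Figure D2:**
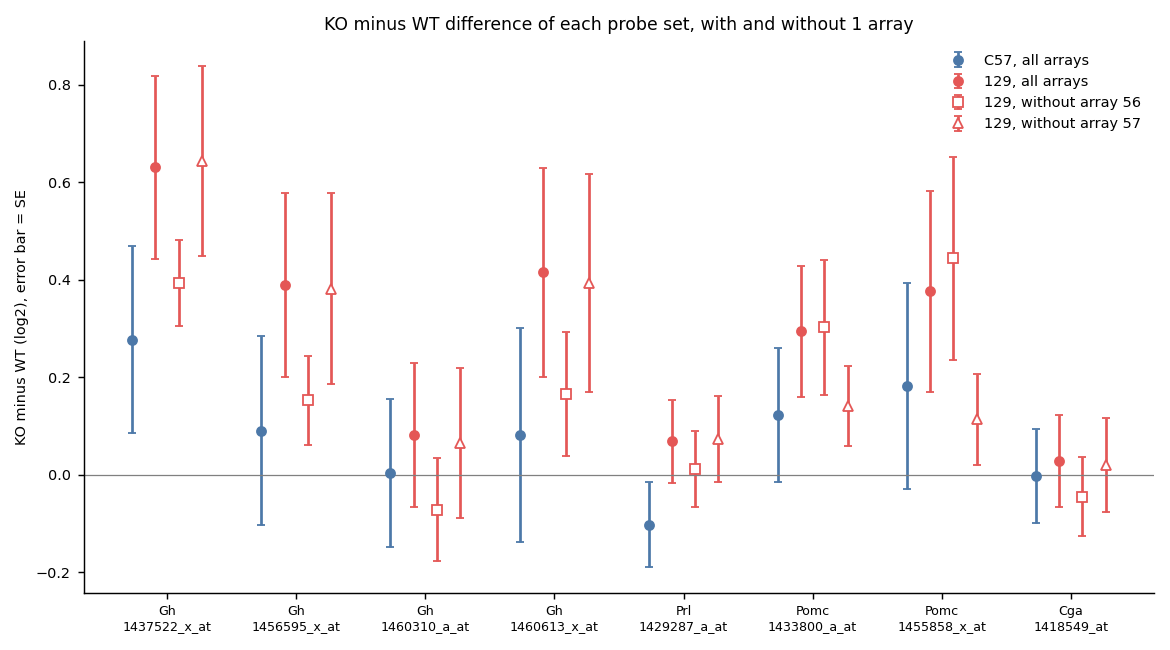
Difference KO minus WT (log2, vertical axis, error bars are SE of the fit) of the 8 probe sets in C57, in 129, and in 129 without array 56 or without array 57. Leaving out array 56 lowers the Gh differences in 129, from 0.63 to 0.39 on the dimmest probe set, and leaving out array 57 lowers those of Pomc, from 0.29 to 0.14 and from 0.38 to 0.11.

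The strain difference between the WT groups was tested on all 8 probe sets. The genes were not chosen on that difference, but WT values entered the choice of Gh and Prl. For these genes the test is therefore not independent of the choice. Between the WT groups 0 of the 8 passed limma's test and 0 had an unadjusted p under 0.05, where 1.36% of all probe sets passed. The 129 minus C57 differences there were 0.13, 0.03, 0.00 and 0.15 for Gh, -0.07 for Prl, -0.01 and 0.15 for Pomc and 0.04 for Cga, with limma adjusted p from 0.919 to 0.998. The interval for the brightest Gh probe set was -0.31 to 0.31, or -0.21 to 0.22 without array 56, and that for Prl was -0.24 to 0.11. Between the KO groups 0 of the 3 Pomc and Cga probe sets passed, with 0 at an unadjusted p under 0.05, where 2% of all passed.

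For Gh and Prl the KO groups hold the values on which the genes were chosen, and their differences carry no test. On the Gh probe set 1437522_x_at, 129 KO lay 0.48 (SE 0.19) above C57 KO, and 0.24 (SE 0.09) without array 56. On 1460613_x_at the difference was 0.48 (SE 0.21), and 0.23 (SE 0.13) without that array. The Prl difference was 0.10 (SE 0.09), and 0.05 (SE 0.08) without it. Cga differed by 0.07 (SE 0.09, 95% interval -0.12 to 0.26, limma adjusted p = 0.917). The Pomc probe sets differed by 0.16 (SE 0.13, interval -0.11 to 0.43, limma adjusted p = 0.802) and 0.35 (SE 0.21, interval -0.07 to 0.77, adjusted p = 0.621), and by 0.01 (SE 0.08) and 0.09 (SE 0.09) without array 57. This comparison shares the 129 KO arrays with that of KO and WT in 129.

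Whether the hormone genes rose and fell together from array to array was asked after group means had been removed, with each gene read on its brightest probe set. Over 37 arrays, the deviations of Gh and Prl were correlated at 0.58 by Pearson's r and 0.38 by Spearman's rho. Without array 56 and array 59, the 2 arrays farthest from the median of Gh, Pearson's r was 0.28. For Gh and Cga, r was 0.58 and rho 0.35, and r was 0.18 without the same arrays. For Prl and Cga, r was 0.56 and rho 0.35, with r at 0.36 without array 56 and C57 KO array 1. No p-value is given for these pairs, because array 56, on which Gh and Prl were picked, is among their values. Without the arrays left out, rho was 0.27 for Gh and Prl, 0.23 for Gh and Cga and 0.30 for Prl and Cga. The relation of Gh with Prl and with Cga thus rested in part on the arrays left out.

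The pairs with Pomc had lower correlations. Pearson's r of Pomc was 0.14 with Gh, 0.09 with Prl and 0.12 with Cga. For Pomc and Cga the unadjusted permutation p was 0.6. The pairs of Pomc with Gh and Prl carry no test either, because those genes were picked on array 56. The probe sets of 1 gene showed the same dependence on single arrays. Among the 4 Gh probe sets the correlations ran from 0.75 to 0.88 over all arrays and from 0.31 to 0.53 without array 56. For the Pomc pair the correlation was 0.71, and -0.16 without array 57. The points share their normalization and background correction.

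**Figure D3:**
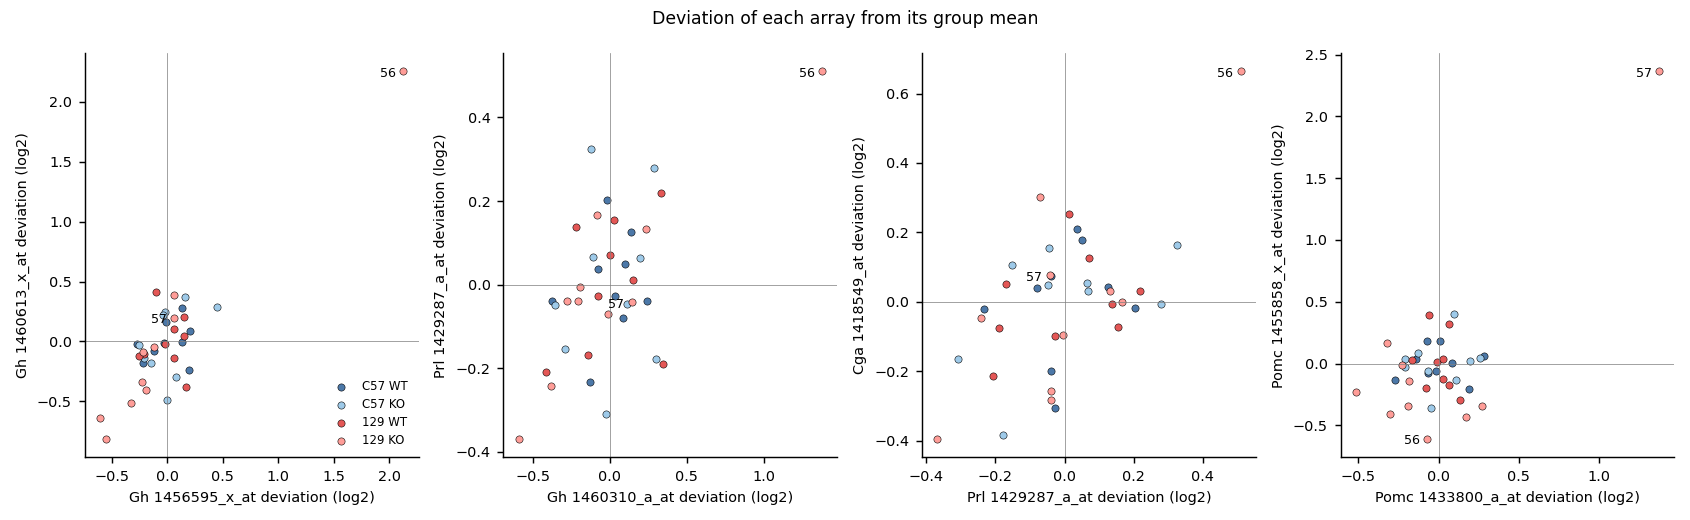
Deviation of each array from its group mean (log2, both axes) for a pair of Gh probe sets, for Gh and Prl, for Prl and Cga, and for both Pomc probe sets, with points coloured by group. Array 56 lies far from the other arrays in the first 3 panels and array 57 in the last, where the correlation is 0.71 with it and -0.16 without it.

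The genes whose deviations were most like those of each hormone gene over the 37 arrays held no other pituitary hormone gene. For Gh they were Trip11 (Pearson correlation 0.72), Prrc1 (0.71), Psen2 (0.69), Sde2 (0.68) and Foxf1 (0.68). Prl was most like Nsl1 (0.83), Ppl (0.80), Klk1 (0.79), Ikbkb (0.77) and Evx2 (0.77), and Cga most like Chrna3 (0.76), Mall (0.75), Sde2 (0.73), Psen2 (0.68) and Krtap10-4 (0.68). Sde2 and Psen2 stood in the lists of both Gh and Cga. Without array 56 the lists of Gh and Cga shared 0 genes, and each kept 0 of its 5, while Prl kept 4 of 5, and without array 57 Pomc kept 2 of 5. Pomc was most like Rtn4rl2 (0.72), Hk1 (0.71), Rell2 (0.70), Creld1 (0.69) and Dhx34 (0.68). These are the top 5 of all genes by this measure and carry no test.

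Array 56 was the highest of all 37 arrays on 6 of the 8 hormone probe sets, those of Gh, Prl and Cga, where it was so on 1.61% of all probe sets. The Gh and Prl part of that count is what the genes were picked on and shows nothing more. Its excess over the mean of the other 129 KO arrays was 2.38 on the dimmest Gh probe set, 2.36 on 1456595_x_at, 2.50 on 1460613_x_at and 1.53 on the brightest. An excess of 2.50 is a 5.66-fold signal. These ranked 3, 4, 2 and 11 of all probe sets, and 0.0429% of all probe sets exceeded the group by at least 1. Cga (0.74, rank 46) and Prl (0.57, rank 147) had smaller excesses, and set against the 8 arrays of the group other than 56 and 57, array 56 differed by 0.09 and -0.39 on the Pomc probe sets.

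The probe set with the largest excess on array 56 belonged to Ttr, transthyretin, a carrier of thyroid hormone that is abundant in choroid plexus. It was 2.54 above the other 129 KO arrays at 9.78, which ranked 4 of 37 arrays, the highest being C57 WT array 34 at 12.51. After Ttr came Phgdh (2.32), Mid1 (1.64), Tia1 (1.58), Snhg11 (1.48), Nceh1 (1.27), Cbl (1.19) and Plxnc1 (1.15). Of these 8, array 56 was the highest of all arrays only for Mid1. No contrast with the Gh probe sets is drawn, because Gh was picked for being highest on that array.

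Array 57 had the highest Pomc signal and was the highest of all arrays on 4.34% of probe sets. The Pomc excesses of 1.53 and 2.63 over the other 129 KO arrays ranked 8 and 1 of all probe sets, where 0.172% exceeded the group by at least 1. Set against the same 8 arrays, array 57 was 0.14, 0.34, 0.33 and 0.50 higher on the Gh probe sets, where it ranked 5, 4, 8 and 3 of 37 arrays. On Prl it differed from those 8 by 0.02 and on Cga by 0.17. Genes picked after their values were seen, Snhg11 (2.31), Gprin3 (1.90), Kif5c (1.74) and Cbl (1.72), followed Pomc on this array. Snhg11, Cbl, Nceh1 and Tia1 were among the leading genes of both arrays. On them array 56 ranked only 17, 17, 16 and 21 of 37 arrays. These genes varied widely, with SDs from 1.57 to 1.78 over the 129 KO arrays other than 56.

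The other pituitary markers were not highest on either array. Of the 7 listed markers besides the 4 hormone genes, 5 had a probe set: Tshb, Lhb and Fshb, the beta subunits, and Ghrhr and Gnrhr, receptors by which the hypothalamus drives the gland. Array 56 was the highest on 0 of the 5, with excesses from -0.05 to 0.27, and array 57 on 0 of 5, with excesses from -0.04 to 0.22. On array 57, 2 of the 5 were above all other 129 KO arrays, and on array 56 0 were. Their mean signal was 3.06 on array 56 (rank 2 of 37) and 3.02 on array 57 (rank 6), in a 129 KO range of 2.82 to 3.16, with 2.75 to 3.00 in C57 WT, 2.70 to 3.03 in C57 KO and 2.83 to 3.06 in 129 WT. Their own means lay under 3.60 in 4 of 5 cases. No level is given for the transcription factor Pou1f1, which had no probe set with its symbol alone.

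With the hormone genes included, the pituitary marker mean was 3.67 on array 56 and 3.55 on array 57, the highest and next of all arrays, against 3.14 to 3.33 in C57 WT, 3.14 to 3.41 in C57 KO and 3.11 to 3.40 in 129 WT. Markers of hypothalamus, 10 of 11 measured, placed array 56 at rank 11 and array 57 at rank 22. Choroid plexus markers, 7 of 7 measured, had a mean of 4.17 on array 56, rank 4, where Ttr was 2.22 above the group on its brightest probe set and the other 6 lay between -0.15 and 0.37. That list was highest in C57 WT array 34, at 5.56, and 129 WT array 72, at 5.26. Neither of those led on a hormone probe set, but for Gh and Prl the choice of genes on array 56 had fixed that beforehand.

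Erythroid markers, 2 of 4 measured, placed array 56 at rank 18 and array 57 at rank 24. Neurons of cortex and hippocampus, 7 of 8 measured, had marker means between 7.25 and 7.99 in 129 KO, and array 57 had the highest of all. Nrgn, Camk2a and Tbr1 were highest there. The 3' to 5' actin difference, a sign of RNA quality, was 1.03 on array 56 (rank 32 of 37) and 1.47 on array 57 (rank 10), in a range of 0.91 to 2.76. The correlation with the mean of the other 129 KO arrays was 0.997 and 0.994. The part of any of these markers in the hormone gene signals was not tested.

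**Figure D4:**
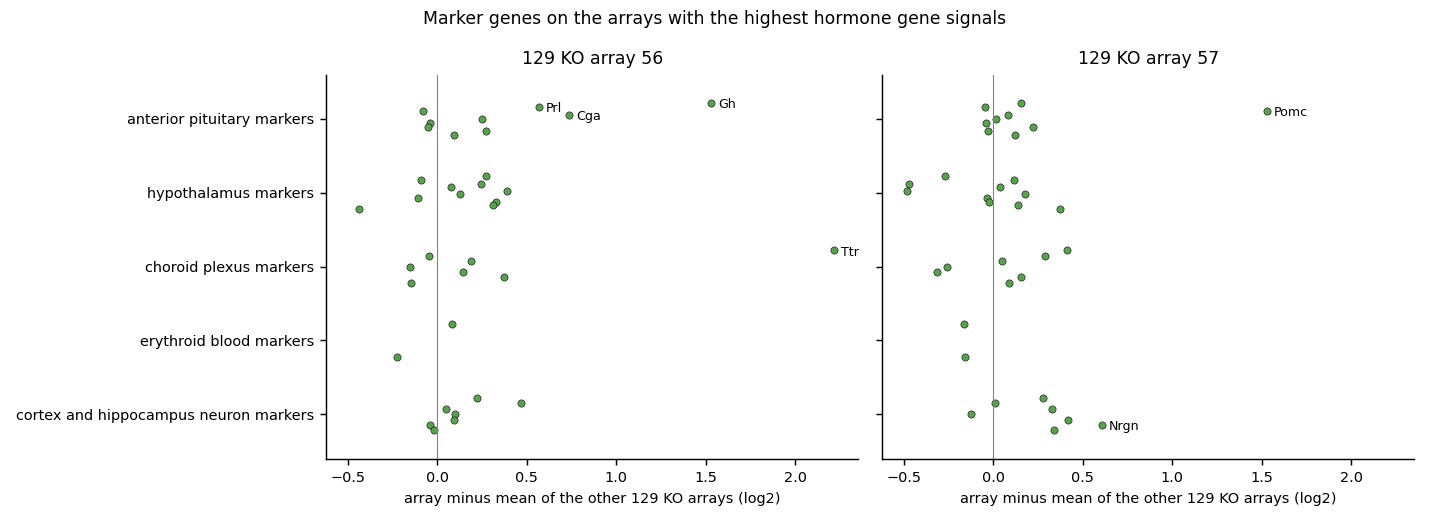
Excess of 129 KO array 56 (left) and array 57 (right) over the mean of the other 129 KO arrays (log2, horizontal axis) for the genes of 5 marker lists, 1 point a gene. On array 56 the points beyond 0.5 are Gh, Cga, Prl and Ttr, and on array 57 they are Pomc and Nrgn.

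By their residual values the arrays also split into a set of 19 and a set of 18, with the lower sample numbers of each group in set 1, and arrays 56 and 57 both belonged to set 2. KO minus WT on the dimmest Gh probe set was 0.31 within set 1 and 0.21 within set 2 in C57, and 0.31 within set 1 and 0.98 within set 2 in 129. On the brightest Gh probe set the difference in C57 was 0.17 within set 1 and -0.17 within set 2, and the largest value in 129 was 0.29, within set 2. The labels name no such sets.

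The genes that regulate, receive and process these hormones were read through 5 lists, each gene on its brightest probe set, with 63 of 73 genes measured. They were pituitary cell genes (17 of 20 measured), hormone receptors (8 of 11), hypothalamic regulators (16 of 18), growth hormone and prolactin signalling (13 of 14) and prohormone processing (9 of 10). For KO against WT, 0 of 63 passed in C57, with 9 at an unadjusted p under 0.05, and 0 of 63 in 129, with 0 at that level. Limma called 0.077% and 0.0055% of all genes in these comparisons.

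In C57 the medians of the lists were 0.04 for pituitary cell genes, 0.08 for receptors, 0.02 for hypothalamic regulators, 0.03 for signalling and 0.03 for processing, beside 0.02 over all genes. In 129 they were 0.05, 0.01, -0.00, -0.00 and 0.00, beside -0.00 over all genes. Among the beta subunits, Tshb differed by 0.00 (SE 0.09) in C57 and -0.05 (SE 0.08) in 129, Lhb by 0.15 (SE 0.07) and 0.05 (SE 0.07), and Fshb by 0.04 (SE 0.07) and 0.01 (SE 0.06). Ghrhr, the receptor for the hypothalamic releasing hormone of Gh, differed by 0.07 (SE 0.09) and 0.12 (SE 0.09). None of these passed.

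Receptors and targets of the hormones gave no call for KO either. Ghr, the growth hormone receptor, differed by 0.06 (SE 0.09) in C57 and -0.02 (SE 0.08) in 129. Igf1, the main mediator of growth hormone, differed by 0.08 (SE 0.10) and -0.04 (SE 0.10). Socs2 and Cish, which are induced by growth hormone signalling and restrain it, differed by 0.04 (SE 0.07) and -0.08 (SE 0.08) in C57 and by 0.05 (SE 0.07) and -0.03 (SE 0.08) in 129. Mc3r, a receptor for melanocortins cut from Pomc, differed by 0.09 (SE 0.09) and -0.02 (SE 0.09), and Tshr, the receptor for thyrotropin, by 0.14 (SE 0.08) and 0.05 (SE 0.08). Adjusted p-values from limma were 0.999 in C57 and 1 in 129 for each of these.

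The hypothalamic peptides were likewise without a call. Ghrh, which releases growth hormone, differed by 0.09 (SE 0.09) in C57 and 0.03 (SE 0.09) in 129 at a signal of 3.02. Sst, somatostatin, which holds it back and is also made by cortical interneurons, differed by 0.06 (SE 0.05) and 0.09 (SE 0.05). Crh, which drives Pomc in corticotrophs, differed by -0.08 (SE 0.12) and -0.19 (SE 0.11), and Trh by -0.02 (SE 0.09) and -0.12 (SE 0.09). Drd2, the dopamine receptor through which prolactin is held down, had a difference of -0.59 for C57 (SE 0.18, limma adjusted p = 0.579) and -0.20 for 129 (SE 0.18, adjusted p = 1). Avp, Oxt and Cartpt differed by 0.08 (SE 0.41), -0.05 (SE 0.17) and 0.01 (SE 0.10) in C57 and by 0.08 (SE 0.40), -0.10 (SE 0.17) and 0.02 (SE 0.09) in 129. Pcsk1, which cuts Pomc, differed by 0.11 (SE 0.09) and -0.03 (SE 0.08). The genes without a probe set of a single symbol included Pou1f1, Prlr, Mc4r, Gnrh1, Agrp and Pcsk2.

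Between strains, 1 of the 63 genes passed in WT, where 1.26% of all genes did, and 2 passed in KO, where 1.97% of all genes did. Pam, the enzyme that amidates the ends of many peptide hormones, was higher in 129 WT at 8.30 ± 0.16 (SD, n = 9) than in C57 WT at 7.68 ± 0.23 (SD, n = 9), by 0.62 (SE 0.12, limma adjusted p = 0.00163). The WT arrays did not overlap, with 8.06 to 8.53 in 129 and 7.32 to 7.94 in C57. In KO its difference was 0.36 (SE 0.11, limma adjusted p = 0.0985).

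Both genes called between the KO groups encode somatostatin receptors, which restrain the release of growth hormone. The other receptors of that family did not pass there, and they did not share a direction. Sstr3 differed by -0.22 (SE 0.08), Sstr4 by -0.18 (SE 0.09) and Sstr5 by 0.12 (SE 0.08). Sstr2 was higher in 129 KO at 6.78 ± 0.14 (SD, n = 10) than in C57 KO at 6.49 ± 0.12 (SD, n = 9), by 0.29 (SE 0.06, limma adjusted p = 0.00153). Its arrays overlapped, with 6.51 to 7.02 in 129 KO and 6.32 to 6.66 in C57 KO. Sstr1 was higher at 4.58 ± 0.27 (SD, n = 10) than at 3.73 ± 0.65 (SD, n = 9), by 0.86 (SE 0.22, limma adjusted p = 0.026), and overlapped as well, with 4.10 to 4.93 against 2.68 to 4.44. Between the WT groups Sstr1 differed by 0.70 (SE 0.22, adjusted p = 0.137) and Sstr2 by 0.13 (SE 0.06, adjusted p = 0.416). The Sstr1 call was lost without C57 KO array 1, 5 or 10, each left out alone.

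**Figure D5:**
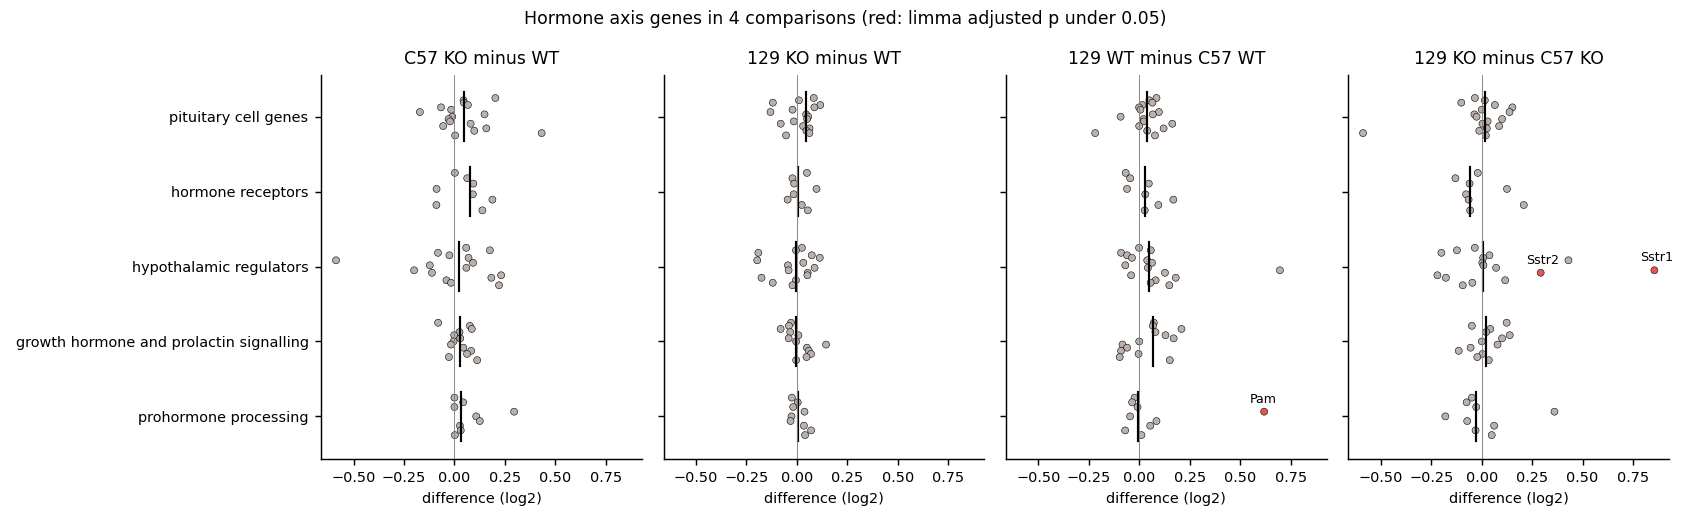
Differences (log2, horizontal axis) of the 63 measured genes of 5 hormone axis lists in 4 comparisons, 1 point a gene, with the list median as a bar and genes passing limma in red. No gene is red for KO against WT, Pam is red between the WT groups, and Sstr1 and Sstr2 are red between the KO groups.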

How the data were processed

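The deposited table gave log2 probe set signals that the authors had already normalized between arrays; the submitters' processing notes name MAS5 and GCRMA, with no role given, and the array medians and low values have the form GCRMA writes. GCRMA corrects background by a model, so dim values depend on it, and the number of arrays limits the precision. The values were used as deposited. Of 45101 probe sets, 64 controls, 932 with several symbols and 9160 with none were left out, which kept 34945.

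One limma model (limma 3.58.1, R 4.3.3) that gave every group its own mean was fitted to the 37 arrays together, without a filter, and p-values are 2-sided with Benjamini-Hochberg adjustment over all 34945 probe sets, or over 18193 genes for the lists. The threshold was an adjusted p under 0.05. Correlations used 100000 permutations within groups (Python 3.11.15, NumPy 2.4.6, SciPy 1.17.1, pandas 2.3.3, and matplotlib 3.10.9 for plots). The fit was tested on simulated data. The rule for names took all 8 hormone probe sets, list genes called in a comparison, a fixed set of axis genes, the 5 genes most like each hormone gene and the 8 leading genes of array 56. The members, lists, markers and alternatives were chosen with earlier results of these data known. Array sets came from the first component of residuals on 40 variable probe sets. Alternatives were other normalizations, fits, filters, covariates and arrays left out. A gene of the lists is not reported here.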

Additional observations from a re-analysis of the deposited data

Results flagged for a closer look

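In 6 of the 32 groups tested, 1 array stood apart from the rest of its group by more than a Dixon test allows, a limit that chance passes in about 5% of groups. All 6 were in 129 KO. On the 4 Gh probe sets the array was 56, at 5.20 on 1437522_x_at, 5.57 on 1456595_x_at, 5.42 on 1460310_a_at and 5.60 on 1460613_x_at. These share a transcript, and Gh was picked because that array was highest on it, so these 4 restate the choice and the chance rate does not bear on them. On both Pomc probe sets it was array 57, at 6.90 on 1433800_a_at and 6.11 on 1455858_x_at. Those probe sets share a transcript as well, so they are not separate cases. The highest values of Prl and Cga, both on array 56, did not pass that limit.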

How the results depend on the processing

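No Pomc or Cga probe set passed for KO against WT or between strains, under any of the 49 alternatives that could be fitted. The removal of array 56 alone and that of array 57 alone each appear more than once among them. The filter on dim probe sets kept only 3 of the 8, so the others have no value there. A change of sign was counted only where the value with all arrays, or the one under the alternative, lay more than its SE from 0. By that rule 4 uncalled differences between 129 KO and C57 KO turned: the brightest Gh probe set, at -0.11 without arrays 56 and 57, Prl, at -0.0069 within array set 2, and the Pomc probe sets, at -0.0003 on 1433800_a_at without arrays 56 and 57 and -0.0383 on 1455858_x_at within array set 1. The array sets and the removal of array 57 were alternatives added after the data had been seen.

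Among axis genes, the count between WT groups was 2 with the actin covariate (Pam and Sstr1), 0 within set 1 and 2 within set 2 (Pam and Igf1r), and 1 to 2 with single arrays left out, 2 being without C57 WT array 33. Between KO groups it was 1 without arrays 56 and 57, 0 within either set, and 1 to 3 with single arrays left out. It was 3 without C57 KO array 2 or 9, which added Pam, and without 129 KO array 59, which added Oprm1. Each array set has fewer arrays, and other causes were not tested. No paired analysis was possible because the groups share no replicate numbers. Dim signal limits 6 of the 8 probe sets, and the brightest Gh probe set was dim as well. For all of these, a difference in signal does not give the size of a difference in transcript.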
